A study of Mus musculus with 12 samples.

Results

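The genes described here break glucose down to lactate or belong to the transcriptional response to low oxygen. The list held 38 named genes, covering glucose and lactate transport, glycolytic enzymes, regulators of their flux, oxygen sensing factors and other genes known to respond to hypoxia. A gene was taken where a transcript cluster, the set of array probes that reads one transcript, carried its symbol and no other. Where several clusters met this condition, as for 7 of the genes, the cluster with the highest mean over the 12 arrays stood for the gene. This found 35 of the 38 listed genes among 22180 genes in all. Bnip3l and Ankrd37 stood only on clusters with several symbols, and Eno1 was matched by no cluster with 1 symbol, so these 3 were not analysed here.

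RNA was measured on 12 Affymetrix arrays from mouse T cells that had been cultured with dendritic cells from a second strain. The T cells, resting CD4 or CD8 cells of C57BL6-Foxp3-GFP mice, carried a reporter in which green fluorescent protein (GFP) marks expression of Foxp3, a transcription factor that defines regulatory T cells. They were plated at 200000 per well with 20000 CD11c dendritic cells from BALB/c mice, and every well received IL-2 at 5 ng/mL. The 2 control groups, CD8 control and CD4 control, received IL-2 only and were sorted as GFP-negative. The CD8 Foxp3-positive and CD4 Foxp3-positive groups were also given 40 nM retinoic acid and 5 ng/mL of TGFB and were sorted as GFP-positive. Culture lasted 4 days for CD8 and 5 days for CD4 cells, so lineage and time in culture cannot be told apart, and within a lineage neither can the treatment and the sort on Foxp3. Each group had 3 arrays, with replicate letters A to C. Cells were pooled before the sort, and whether replicates were separate cultures or animals is not stated in the labels. A p-value here therefore reflects the spread among these samples alone, and that spread may be technical.

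Activated T cells take up glucose through transporters of the Slc2a family, convert it to pyruvate through the glycolytic enzymes, and export much of it as lactate through the monocarboxylate transporters of the Slc16a family. The transcription factor HIF, made of an oxygen-labile alpha subunit such as Hif1a and the stable partner Arnt, binds short DNA motifs with the core ACGTG or GCGTG and activates many of these genes. With oxygen present, the prolyl hydroxylases Egln1 and Egln3 mark the alpha subunit for the ubiquitin ligase that holds Vhl, and the subunit is degraded.

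Promoter sequence was read from RefSeq, on the mouse build GRCm38.p6, for 35 of the 38 listed genes (all but Slc2a3, Bnip3l and Ndrg1). These genes had 51 windows of 300 bases, from 250 bases before to 50 after a transcription start. Shown are the 250 bases before the start, 5′ to 3′ on the strand of the gene, for Slc16a1 and Pgk1, which fell in both lineages as described further on, and for Hif1a and Egln3, which differed between the lineages. Capitals mark each match to ACGTG or GCGTG on either strand, a match on the opposite strand reading CACGT or CACGC.
Slc16a1: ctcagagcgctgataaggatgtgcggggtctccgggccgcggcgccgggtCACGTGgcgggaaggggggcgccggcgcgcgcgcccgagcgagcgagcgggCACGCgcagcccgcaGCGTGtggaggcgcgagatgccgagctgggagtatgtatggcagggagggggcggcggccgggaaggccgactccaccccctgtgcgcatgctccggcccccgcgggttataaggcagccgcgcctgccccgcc
Pgk1: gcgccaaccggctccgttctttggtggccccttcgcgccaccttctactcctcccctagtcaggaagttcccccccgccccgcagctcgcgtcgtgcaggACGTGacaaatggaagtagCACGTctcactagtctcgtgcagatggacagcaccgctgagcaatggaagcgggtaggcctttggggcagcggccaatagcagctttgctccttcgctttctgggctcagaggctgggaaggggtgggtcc
Hif1a: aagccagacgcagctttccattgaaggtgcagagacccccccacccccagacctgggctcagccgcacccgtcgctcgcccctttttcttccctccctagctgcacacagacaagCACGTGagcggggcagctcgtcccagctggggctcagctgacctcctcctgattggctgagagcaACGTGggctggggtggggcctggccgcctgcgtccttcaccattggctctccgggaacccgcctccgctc
Egln3: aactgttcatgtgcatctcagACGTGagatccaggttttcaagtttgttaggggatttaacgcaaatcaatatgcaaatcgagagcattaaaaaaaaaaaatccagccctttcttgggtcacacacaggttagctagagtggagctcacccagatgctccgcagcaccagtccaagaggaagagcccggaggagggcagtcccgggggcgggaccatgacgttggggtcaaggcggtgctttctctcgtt
The Slc16a1 stretch (chr3:104638414-104638663, plus strand) held 4 matches, 2 of them the strands of one CACGTG, the E-box read by Myc and its partner Max. The Pgk1 stretch (chrX:106186850-106187099, plus strand) held 2 matches close to one another. The Hif1a stretch (chr12:73907617-73907866, plus strand) held 3 matches, 2 of them again the strands of one CACGTG. The Egln3 stretch (chr12:54203875-54204124, minus strand) held 1 match, far from the start.

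Over the whole list, 38 of the 51 windows (74.5%) held at least 1 core match on either strand, beside 43.8% of all 32851 windows in the table. ACGTG was in 51% of the listed genes' windows and 19.6% of all windows, GCGTG in 52.9% and 32.4%, and CACGTG, each copy of which also counts for ACGTG, in 11.8% and 7.15%. The cores hold a CG pair, and the listed genes' windows were richer in that pair, with a median of 20 against 7 in all windows. Among the 8701 windows of the table with at least 20 CG pairs, 73.6% held a core, and of the 27 such windows of the listed genes 24 did. Counted by gene, a core in any window was found for 30 of the 35 listed genes with a window (85.7%), beside 46.7% of all genes. Of the 18 genes that fell in at least 1 lineage, 17 had a window and 16 of these a core. Of the 17 that passed in neither lineage, 16 had a window and 12 a core. The CG content and number of windows were not compared between these groups, so no link between a core and a fall is drawn. A match describes these letters and is not a binding site.

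Levels are log2 array signals, and a group's level is its mean ± SD (n = 3 arrays). Differences are log2 differences ± standard error from limma with its Benjamini-Hochberg adjusted p over all 22180 genes. A gene rose or fell where that p was under 0.05. Levels of different genes come from different probes and were not ranked against each other. In RNA from sorted populations, fewer cells with a transcript and less of it per cell cannot be told apart. The labelled cell types stood in the right groups. Foxp3 was at 5.66 ± 0.59 and 5.76 ± 0.29 in the CD8 and CD4 controls and at 12.48 ± 0.05 and 12.44 ± 0.05 in the Foxp3-positive groups. The T cell receptor complex genes Cd3e, Cd3d and Cd3g had group means between 10.26, for Cd3d, and 12.93, for Cd3e. They also moved between the groups. Cd3e rose in CD8 and CD4 cells (0.43 ± 0.09 and 0.30 ± 0.09, limma adjusted p = 0.00365 and 0.0292), while Cd3d and Cd3g fell in CD4 cells (-0.48 ± 0.11 and -0.37 ± 0.10, limma adjusted p = 0.00572 and 0.0204). Cd4 was at 12.31 and 11.92 in the CD4 control and Foxp3-positive groups against 5.36 and 5.17 in the CD8 groups, and Cd8b1 at 11.86 and 11.97 in the CD8 groups against 7.72 and 6.17 in the CD4 groups, where it fell (-1.55 ± 0.14, limma adjusted p = 2.81e-06) and Cd8a rose (1.03 ± 0.30, adjusted p = 0.0273). Array medians lay between 5.23 and 5.33, and all 35 genes had a mean over the 12 arrays above 5.60, the median of all genes. No background level was available, and the near copies that Gapdh, Tpi1, Pgk1, Pgam1, Pkm, Ldha and Mif have elsewhere in the genome make their probes uncertain.

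Markers of other cells moved between the same groups. The 12 measured of 14 dendritic cell markers had a mean level of 6.45 to 6.53 per array in CD8 controls against 6.27 to 6.37 in CD8 Foxp3-positive cells, and of 6.57 to 6.69 in CD4 controls against 6.19 to 6.46 in CD4 Foxp3-positive cells. Between 6 and 8 of the 12 lay above 5.60 in each group. Cd209a, H2-Ab1 and Cst3 were the brightest, with group means from 8.16 to 10.00, while Flt3, Zbtb46, Xcr1 and Siglech lay below 5.60 in every group. In the CD8 comparison Cst3 rose (0.38 ± 0.10, limma adjusted p = 0.0127), and Itgax and Batf3 fell (-1.76 ± 0.13 and -0.96 ± 0.25, limma adjusted p = 1.02e-06 and 0.016). In the CD4 comparison 0 rose, and Batf3 and H2-Ab1 fell (-1.56 ± 0.25 and -1.05 ± 0.33, limma adjusted p = 0.000523 and 0.0368). For 3 measured of 4 NK cell markers the mean per array went from 5.77 to 5.96 down to 4.60 to 4.98 in CD8 cells. In CD4 cells it went from 5.48 to 5.96 down to 4.54 to 4.95. Eomes, which activated T cells also express, was the member that fell in both. The mean of the 6 measured of 7 B cell markers was higher on every Foxp3-positive array than on the controls of its lineage, at 5.25 to 5.38 against 5.02 to 5.08 in CD8 cells and 5.13 to 5.19 against 5.01 to 5.12 in CD4 cells. Cd79b rose in both lineages (1.10 ± 0.15 and 0.77 ± 0.15, limma adjusted p = 0.000192 and 0.00241) and Cd79a in CD8 cells (0.36 ± 0.12, adjusted p = 0.0492), while Ebf1 fell in CD4 cells (-0.64 ± 0.17, limma adjusted p = 0.0174) and Pax5 differed by -0.13 and -0.08 without passing. For 7 measured of 8 macrophage and monocyte markers the mean was 5.50 to 5.88 on CD8 Foxp3-positive arrays against 5.26 to 5.47 on controls. In CD4 cells it was 5.35 to 5.59 against 5.38 to 5.61. Lyz2 rose and Cd68 fell in both lineages, and C1qb rose in CD8 cells. The mean of the 2 measured of 6 red cell and platelet markers lay between 4.78 and 5.11 on every array. Of these 2, Pf4 rose in CD8 cells, from 3.98 to 4.44 (0.46 ± 0.12, limma adjusted p = 0.0138). The part of other cells in the results was not tested.

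Single arrays stood apart from their group across the glycolysis and hypoxia genes as a whole. CD4 Foxp3-positive array C was the highest of its group for 30 of the 35 genes and CD4 control array C for 28, where the shares over all genes were 33.1% and 29.5%. CD8 control array B was the lowest of its group for 23 of the 35, CD4 control array B for 21, CD4 Foxp3-positive array B for 27 and CD8 Foxp3-positive array C for 29, beside 33.5%, 35.6%, 37.3% and 36.8% of all genes. The median deviation of the 35 genes from their group means ran from -0.17 on CD4 Foxp3-positive array B to 0.20 on array C of that group, and was -0.15 on CD8 control array B, while the median over all genes stayed within 0.01 of 0 on each array to 2 decimals. Both CD4 groups followed the replicate letter in these genes, with medians of -0.04 and -0.05 on control and Foxp3-positive array A, -0.09 and -0.17 on array B, and 0.13 and 0.20 on array C. The CD8 groups had medians of 0.08 and 0.08 on array A, -0.15 and 0.05 on array B, and 0.06 and -0.12 on array C. The spread within groups was widest for Gbe1 (residual SD 0.51), Ndrg1 (0.50), Aldoc (0.43) and P4ha2 (0.43) and narrowest for Gapdh (0.032), against a median of 0.173 for the 35 genes and 0.151 for all genes.

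**Figure D1:**
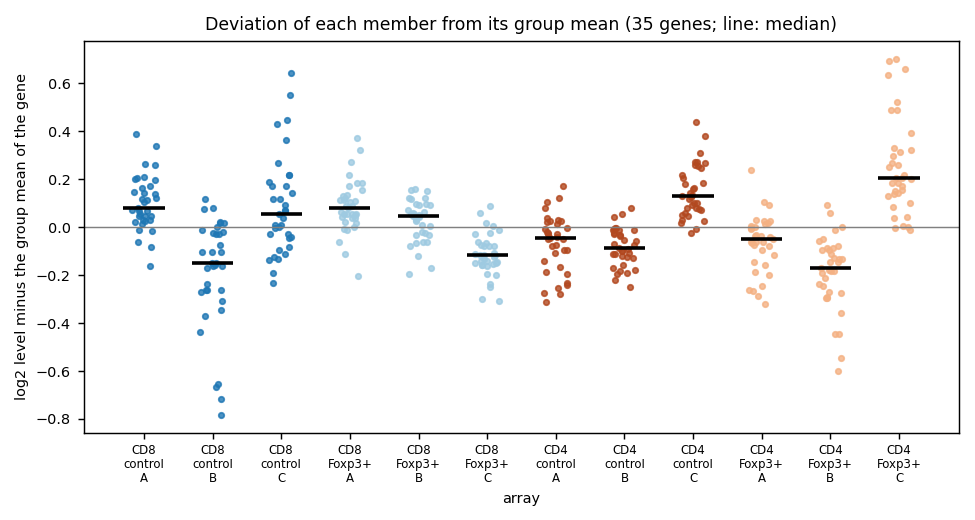
Deviation of each of the 35 genes from its group mean (log2, vertical axis) on each of the 12 arrays (horizontal axis), 1 point per gene, with a black line at the median of the array. The points of CD4 Foxp3-positive array C lie mostly above 0 (median 0.20) and those of array B of that group and of CD8 control array B mostly below (medians -0.17 and -0.15).

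In CD8 cells, which were compared to ask how Foxp3-positive CD8 cells differ from CD8 cells given IL-2 alone, 7 of the 35 genes fell and 0 rose. The genes were Slc2a3, Pfkp, Pfkfb3, Pgk1, Ldha, Slc16a1 and Mif. The share that fell, 20%, stood beside 10.6% of all genes that fell and 9.39% that rose. Counted in both directions the share did not exceed that of all genes, 20%. The median difference of the 35 genes was -0.29, with 30 of them below 0, against -0.02 over all genes. In 18 genes the control and Foxp3-positive arrays stood apart, 15 of them lower (18% of all genes) and 3 higher (15.5%) in Foxp3-positive cells. The count of genes that fell went from 7 to 4 without CD8 control array A or without CD8 Foxp3-positive array C.

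In the same question asked of CD4 cells, 14 of the 35 genes fell and 0 rose. They were Slc2a1, Slc2a3, Hk1, Hk2, Pfkfb4, Pgk1, Slc16a1, Slc16a3, Hif1a, Egln1, Egln3, Bnip3, P4ha2 and Gys1. This was 40% of the genes, beside 10.4% of all genes that fell, 12.1% that rose and 22.5% in either direction. The median difference was -0.35, with 27 of the 35 below 0, against 0.00 over all genes. In 17 genes every Foxp3-positive array was lower than every control array (17.6% of all genes), and in 2 genes every one was higher (20.2%). Of those that fell, 4 changed at least 2-fold (11.4% of the 35), where in CD8 cells 1 did (2.86%). The shares of all genes that passed with at least 2-fold change, rises and falls together, were 5.01% in CD4 and 3.62% in CD8 cells. The count of 14 became 8 without CD4 Foxp3-positive array B, 9 without array A of that group or without CD4 control array C, and 18 without CD4 Foxp3-positive array C. Without CD8 control array B and CD4 Foxp3-positive array C, a pair chosen after the values were seen, 10 genes fell in CD8 cells and 20 in CD4 cells. Most of the 35 genes lay toward the opposite group on these arrays, so leaving the arrays out was bound to widen the falls. The shares over all genes in that run are not given here.

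The lists of genes that fell in the 2 lineages shared Slc2a3, Slc16a1 and Pgk1, which are 3 of the 7 in CD8 cells and 3 of the 14 in CD4 cells. Passing in 1 lineage and not in the other does not show a difference, so the lineages were also compared through the interaction, the CD8 difference minus the CD4 difference. It passed for 5 genes, 3 higher (Hk1, Hif1a and Egln3) and 2 lower (Slc16a1 and Mif), which was 14.3% of the genes beside 13.5% of all genes and is a share near that background. By direction, 6.01% of all genes passed higher and 7.48% lower.

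**Figure D2:**
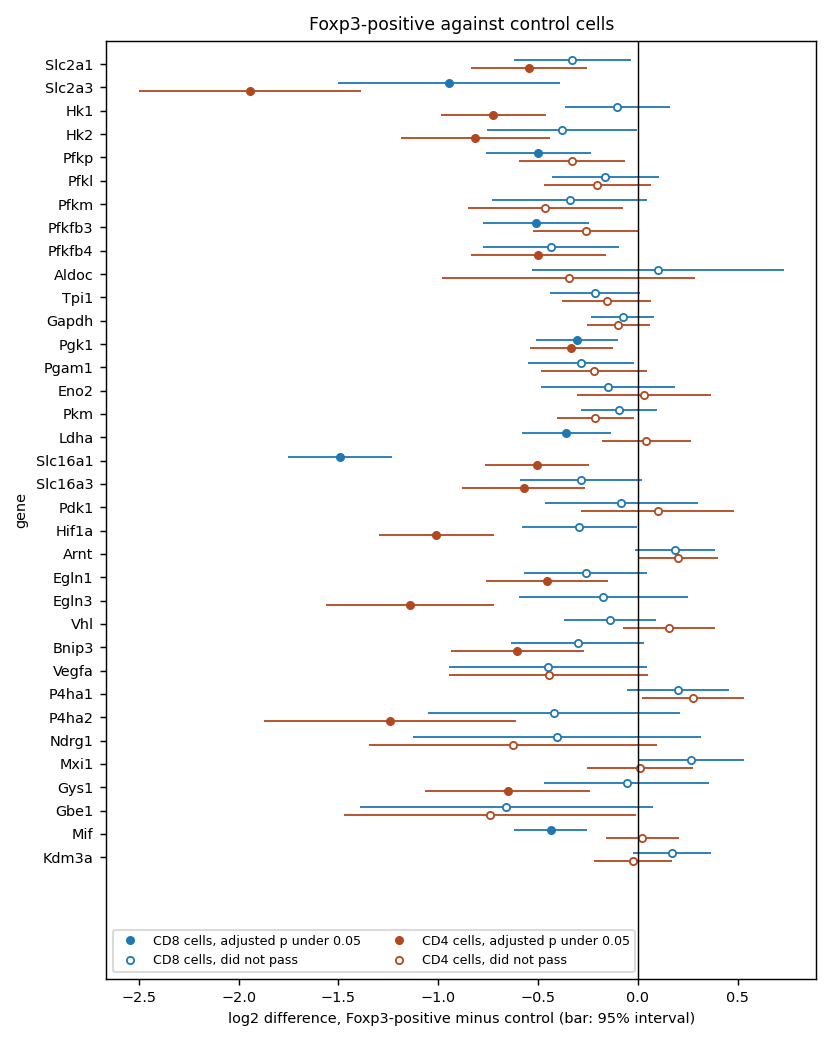
Log2 difference, Foxp3-positive minus control (horizontal axis), for each of the 35 genes (vertical axis) in CD8 cells (blue) and CD4 cells (brown), with bars for the 95% interval and filled points where the adjusted p was under 0.05. All filled points lie left of 0, 7 in CD8 and 14 in CD4 cells, and the Slc2a3 point in CD4 cells lies farthest left, at -1.95.

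Of the 4 transporters 2 fell in CD8 cells and 4 in CD4 cells, with median differences of -0.64 and -0.56. Over all genes 10.6% fell in CD8 and 10.4% in CD4 cells. Slc2a3, the high-affinity glucose transporter GLUT3, was at 10.75, 10.22 and 10.50 on CD8 control arrays A to C and at 9.81, 9.42 and 9.39 on the CD8 Foxp3-positive arrays. In CD4 cells the levels were 11.11, 11.29 and 11.51 in controls and 9.20, 8.81 and 10.06 in Foxp3-positive cells. The CD4 controls were thus the highest group, and in neither lineage did control and Foxp3-positive arrays overlap. Slc2a3 fell 1.93-fold in CD8 cells (-0.95 ± 0.26, limma adjusted p = 0.0187) and 3.85-fold in CD4 cells (-1.95 ± 0.26, adjusted p = 9.54e-05). The interaction of 1.00 ± 0.36 did not pass (limma adjusted p = 0.0931), but did without CD4 Foxp3-positive array C, its highest array (1.35, adjusted p = 0.00459). The CD8 call was lost without CD8 control array A or CD8 Foxp3-positive array B or C (adjusted p from 0.0624 to 0.0812).

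Slc16a1, the lactate and pyruvate carrier MCT1, was at 10.50, 10.50 and 10.15 on the CD8 control arrays and at 8.93, 8.99 and 8.76 on the CD8 Foxp3-positive arrays. On the CD4 control arrays it was at 9.44, 9.15 and 9.41, and on the CD4 Foxp3-positive arrays at 8.92, 8.73 and 8.83. The CD8 controls stood above all other arrays, while both Foxp3-positive groups met near the same level. The fall was 2.81-fold in CD8 cells (-1.49 ± 0.12, limma adjusted p = 1.72e-06) and 1.42-fold in CD4 cells (-0.51 ± 0.12, adjusted p = 0.0078). The difference between the lineages itself passed (interaction -0.98 ± 0.17, limma adjusted p = 0.00216), and these calls held with any single array left out.

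Slc16a3, the lactate exporter MCT4, and Slc2a1, the main glucose transporter GLUT1 of activated T cells, fell in CD4 cells. Slc16a3 was at 10.10, 9.91 and 10.05 on the CD4 control arrays and 9.39, 9.18 and 9.78 on the CD4 Foxp3-positive arrays, against 10.04, 9.76 and 9.70 and then 9.60, 9.60 and 9.44 in CD8 cells. Slc2a1 was at 11.70, 11.62 and 11.80 and then 11.11, 10.95 and 11.42 in CD4 cells, against 11.69, 11.46 and 11.29 and then 11.24, 11.22 and 10.99 in CD8 cells. For both genes the Foxp3-positive arrays lay below the controls in each lineage, with a narrower gap in CD8 cells. In CD4 cells Slc16a3 changed by -0.57 ± 0.14 (1.49-fold, limma adjusted p = 0.0104) and Slc2a1 by -0.55 ± 0.13 (1.46-fold, adjusted p = 0.00991). The CD8 differences of -0.29 ± 0.14 for Slc16a3 (limma adjusted p = 0.206) and -0.33 ± 0.13 for Slc2a1 (0.116) did not pass. The Slc16a3 call was lost without CD4 Foxp3-positive array B (adjusted p = 0.0503). That of Slc2a1 held with any single array left out, at up to 0.0499. A second, dimmer Slc2a1 cluster did not pass in CD4 cells (-0.24 ± 0.14, limma adjusted p = 0.279 over all clusters).

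**Figure D3:**
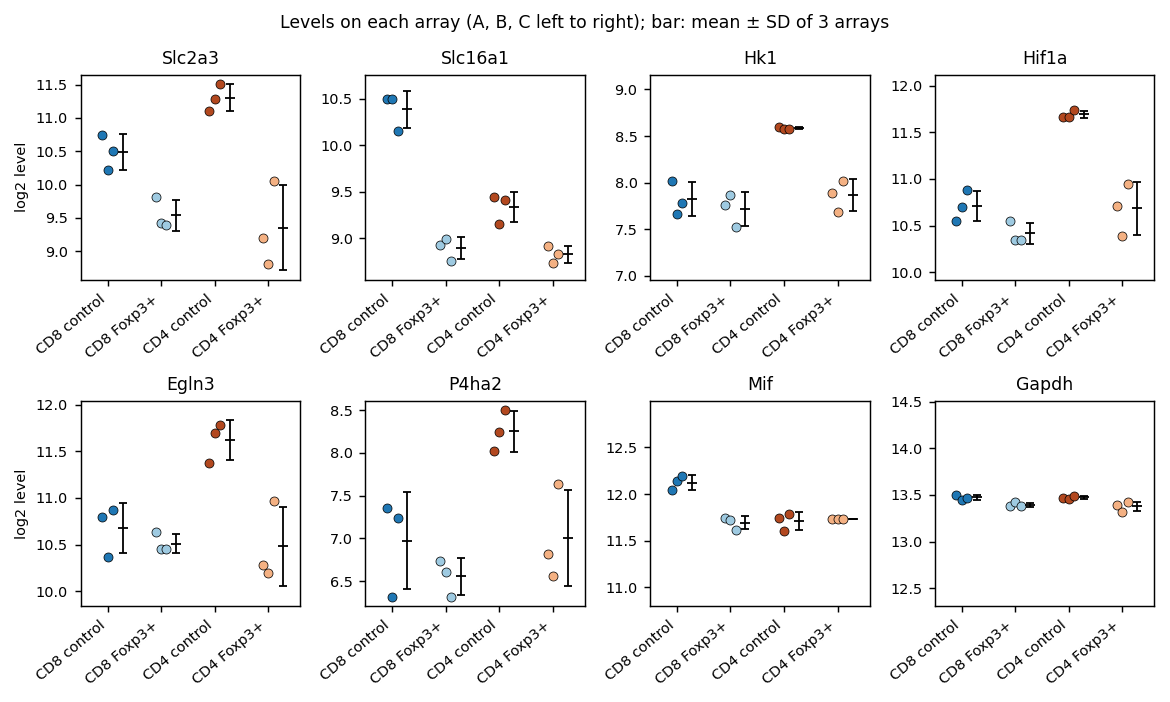
Log2 level (vertical axis) on each array of the 4 groups (horizontal axis) for 8 of the genes, 1 panel per gene with its own axis range, with points for the arrays and bars for the mean ± SD. CD4 controls are the highest group for Slc2a3, Hk1, Hif1a, Egln3 and P4ha2, CD8 controls for Slc16a1 and Mif, and Gapdh stays between 13.32 and 13.50.

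Of the 13 enzymes from hexokinase to lactate dehydrogenase, 3 fell in CD8 cells (Pfkp, Pgk1 and Ldha) and 3 in CD4 cells (Hk1, Hk2 and Pgk1). The median difference was -0.22 in both. Of all genes, 10.6% fell in CD8 and 10.4% in CD4 cells, and 20 and 22.5% passed in either direction. Hk2, the inducible hexokinase that starts glycolysis, was at 9.81, 9.39 and 9.72 on the CD4 control arrays and 8.82, 8.53 and 9.12 on the CD4 Foxp3-positive arrays. In CD8 cells it was at 9.57, 9.27 and 9.28 and then 9.18, 9.12 and 8.69. Control and Foxp3-positive arrays stood apart in each lineage, the CD8 ones by little. Hk2 fell 1.76-fold in CD4 cells (-0.81 ± 0.17, limma adjusted p = 0.00382), and the CD8 difference was -0.38 ± 0.17 (adjusted p = 0.16).

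Hk1, the constitutive hexokinase, was at 8.60, 8.58 and 8.58 on the CD4 control arrays, 7.89, 7.68 and 8.02 on the CD4 Foxp3-positive arrays, 8.02, 7.66 and 7.78 on the CD8 control arrays and 7.76, 7.87 and 7.52 on the CD8 Foxp3-positive arrays. The CD4 controls alone were high, and the other 3 groups overlapped. Hk1 fell 1.65-fold in CD4 cells (-0.73 ± 0.12, limma adjusted p = 0.000704) and differed by -0.10 ± 0.12 in CD8 cells (adjusted p = 0.656). The interaction was 0.62 ± 0.17 (limma adjusted p = 0.0313). That call was lost without CD8 control array B or C, CD8 Foxp3-positive array A or B, any CD4 control array, or CD4 Foxp3-positive array A or B (adjusted p from 0.0543 to 0.0757).

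Pfkp, the platelet-type phosphofructokinase, was at 11.99, 11.82 and 11.96 on the CD8 control arrays and 11.54, 11.47 and 11.27 on the CD8 Foxp3-positive arrays. In CD4 cells it was at 11.77, 11.72 and 11.94 and then 11.42, 11.29 and 11.73. The CD8 groups stood apart, and in CD4 cells Foxp3-positive array C reached into the controls. Pfkp fell 1.41-fold in CD8 cells (-0.50 ± 0.12, limma adjusted p = 0.0101), a call lost without CD8 Foxp3-positive array C (0.0506). In CD4 cells it differed by -0.33 ± 0.12 (limma adjusted p = 0.0722) and passed without CD4 Foxp3-positive array C (-0.45, adjusted p = 0.0145). The other phosphofructokinases, Pfkl of liver type and Pfkm of muscle type, differed by -0.16 ± 0.12 and -0.34 ± 0.18 in CD8 cells and by -0.20 ± 0.12 and -0.46 ± 0.18 in CD4 cells. Neither passed (limma adjusted p = 0.443 and 0.234, then 0.287 and 0.0881), Pfkm passing in CD4 cells without CD8 control array C (adjusted p = 0.0488).

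Further down the pathway the differences were small. Pgk1, which makes the first ATP of glycolysis, went from 12.83 ± 0.04 to 12.52 ± 0.12 in CD8 cells (-0.31 ± 0.10, limma adjusted p = 0.0385) and from 12.77 ± 0.04 to 12.44 ± 0.14 in CD4 cells (-0.33 ± 0.10, adjusted p = 0.0228). The CD8 call was lost without any CD8 control array, CD8 Foxp3-positive array B or C, CD4 control array A or C, or CD4 Foxp3-positive array A (adjusted p from 0.05 to 0.155), and the CD4 call without CD4 control array A or C or CD4 Foxp3-positive array A or B (0.0501 to 0.103). Ldha, the lactate dehydrogenase subunit that favours lactate production, was at 8.13, 8.13 and 8.06 on the CD8 control arrays and 7.55, 7.87 and 7.84 on the CD8 Foxp3-positive arrays, and at 7.97 ± 0.10 and 8.01 ± 0.10 in the CD4 groups. It fell 1.28-fold in CD8 cells (-0.36 ± 0.10, limma adjusted p = 0.0257), lost without CD8 control array A or B or CD8 Foxp3-positive array A (0.0736 to 0.114). In CD4 cells its difference was 0.04 ± 0.10 (limma adjusted p = 0.827), and the interaction of -0.40 ± 0.15 did not pass (adjusted p = 0.0932).

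The remaining enzymes passed in neither lineage. Gapdh, which oxidises glyceraldehyde phosphate and often serves as a reference gene, was at 13.47 ± 0.03 and 13.47 ± 0.01 in CD8 and CD4 controls and at 13.40 ± 0.02 and 13.37 ± 0.05 in the Foxp3-positive groups. Its intervals allowed a CD8 difference between -0.23 and 0.08 and a CD4 difference between -0.26 and 0.06. Tpi1, which interconverts the triose phosphates, Pgam1, which moves the phosphate of phosphoglycerate, and Pkm, the pyruvate kinase, differed by -0.22 ± 0.10, -0.28 ± 0.12 and -0.09 ± 0.09 in CD8 cells. In CD4 cells the same genes differed by -0.16 ± 0.10, -0.22 ± 0.12 and -0.21 ± 0.09, with limma adjusted p values from 0.11 to 0.56 over both lineages. The brain isoforms Aldoc of aldolase and Eno2 of enolase differed by 0.10 ± 0.29 and -0.15 ± 0.15 in CD8 cells and by -0.35 ± 0.29 and 0.03 ± 0.15 in CD4 cells.

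Regulators of flux set how fast sugar passes phosphofructokinase or leaves for the mitochondria. In each lineage 1 of the 3 fell, beside 10.6% of all genes in CD8 and 10.4% in CD4 cells. Pfkfb3, whose product makes the phosphofructokinase activator fructose 2,6-bisphosphate, was at 7.54, 7.37 and 7.67 on the CD8 control arrays and 7.01, 7.14 and 6.90 on the CD8 Foxp3-positive arrays. On the CD4 arrays it was at 7.47, 7.34 and 7.68 and then 7.12, 7.15 and 7.44. The arrays stood apart in CD8 cells and overlapped in CD4 cells. It fell 1.42-fold in CD8 cells (-0.51 ± 0.12, limma adjusted p = 0.00952), with a CD4 difference of -0.26 ± 0.12 (adjusted p = 0.163).

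Pfkfb4, a related enzyme, was at 6.19, 6.25 and 6.63 on the CD4 control arrays and 5.60, 5.92 and 6.06 on the CD4 Foxp3-positive arrays. In CD8 cells it was at 6.18, 5.87 and 6.35 and then 5.75, 5.79 and 5.55. These levels are not far from 5.60, and the arrays stood apart in each lineage. The CD4 fall of 0.50 ± 0.16 (1.41-fold, limma adjusted p = 0.0364) was lost without CD4 control array B or C or CD4 Foxp3-positive array A or B (0.0547 to 0.149), and with arrays centred on their medians (0.0561). The CD8 difference of -0.43 ± 0.16 missed the threshold (limma adjusted p = 0.0728) and passed without CD8 control array B (-0.56, adjusted p = 0.0331). Pdk1, the kinase that shuts pyruvate dehydrogenase, differed by -0.08 ± 0.18 in CD8 and 0.10 ± 0.18 in CD4 cells (limma adjusted p = 0.827 and 0.759).

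Among the 5 oxygen sensing factors 0 passed in CD8 cells, where 20% of all genes passed in either direction. In CD4 cells 3 fell, Hif1a, Egln1 and Egln3, beside 10.4% of all genes. Hif1a was at 11.67, 11.67 and 11.74 on the CD4 control arrays and 10.71, 10.39 and 10.95 on the CD4 Foxp3-positive arrays. In CD8 cells it was at 10.55, 10.70 and 10.88 and then 10.55, 10.35 and 10.35. The CD4 controls stood clear of all other arrays, and the CD8 groups overlapped. Hif1a fell 2.01-fold in CD4 cells (-1.01 ± 0.13, limma adjusted p = 9.12e-05), with a CD8 difference of -0.29 ± 0.13 (adjusted p = 0.157). The interaction of 0.72 ± 0.19 passed (limma adjusted p = 0.0235) and was lost without CD8 control array A, CD8 Foxp3-positive array A or CD4 control array C (0.0522 to 0.0619). A second, dimmer Hif1a cluster fell by 0.91 ± 0.15 in CD4 cells (limma adjusted p = 0.000854 over all clusters). Its interaction of 0.47 ± 0.21 (limma adjusted p = 0.22) and its difference between the controls, -0.42 ± 0.15 CD8 minus CD4 (0.0878), did not pass. The mean of both clusters passed in CD8 cells (-0.37, adjusted p = 0.0438).

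Egln3, a hydroxylase that is itself induced by HIF, was at 11.38, 11.70 and 11.78 on the CD4 control arrays and 10.28, 10.19 and 10.97 on the CD4 Foxp3-positive arrays. In CD8 cells it was at 10.80, 10.37 and 10.87 and then 10.63, 10.45 and 10.45. Again the CD4 controls stood above all other arrays, and the CD8 groups overlapped. It fell 2.21-fold in CD4 cells (-1.14 ± 0.19, limma adjusted p = 0.000804) and differed by -0.17 ± 0.19 in CD8 cells (adjusted p = 0.638). Its interaction of 0.97 ± 0.28 (limma adjusted p = 0.0353) was lost without CD8 control array A or B, any CD8 Foxp3-positive array, CD4 control array B or C, or CD4 Foxp3-positive array A or B (0.0506 to 0.0839), and when p was adjusted over all clusters (0.0512).

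Egln1, the main oxygen sensing hydroxylase, went from 10.66 ± 0.14 to 10.20 ± 0.29 in CD4 cells (-0.45 ± 0.14, limma adjusted p = 0.035) and from 10.48 ± 0.15 to 10.22 ± 0.14 in CD8 cells (-0.26 ± 0.14, adjusted p = 0.249). The CD4 call was lost without CD4 control array B or C or CD4 Foxp3-positive array A or B (0.0646 to 0.151), and with arrays centred on their medians (0.0501). Arnt differed by 0.18 ± 0.09 in CD8 and 0.20 ± 0.09 in CD4 cells (limma adjusted p = 0.207 and 0.143). Vhl differed by -0.14 ± 0.11 and 0.15 ± 0.11 (limma adjusted p = 0.441 and 0.352).

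Of the 10 other hypoxia response genes, 1 fell in CD8 cells (Mif) and 3 in CD4 cells (P4ha2, Bnip3 and Gys1). The shares of all genes that fell were 10.6 and 10.4%. P4ha2, a collagen prolyl hydroxylase subunit, was at 8.02, 8.24 and 8.50 on the CD4 control arrays and 6.82, 6.56 and 7.64 on the CD4 Foxp3-positive arrays. In CD8 cells it was at 7.36, 6.32 and 7.24 and then 6.74, 6.61 and 6.32. The CD4 controls were again above every other array, and CD8 control array B lay at the level of the lowest Foxp3-positive array. P4ha2 fell 2.37-fold in CD4 cells (-1.24 ± 0.29, limma adjusted p = 0.00727), and the CD8 difference was -0.42 ± 0.29 (adjusted p = 0.394).

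Bnip3, which directs mitochondria to autophagy, was at 9.57, 9.40 and 9.89 on the CD4 control arrays and 8.87, 8.84 and 9.34 on the CD4 Foxp3-positive arrays, against 9.85, 9.51 and 9.68 and then 9.40, 9.43 and 9.30 in CD8 cells. Gys1, the muscle-type glycogen synthase, was at 9.19, 9.09 and 9.53 and then 8.58, 8.26 and 9.01 in CD4 cells, against 8.84, 8.43 and 8.81 and then 8.73, 8.80 and 8.39 in CD8 cells. The CD4 groups stood apart for both genes, narrowly, and of the CD8 groups those of Gys1 overlapped. In CD4 cells Bnip3 fell 1.52-fold (-0.60 ± 0.15, limma adjusted p = 0.012) and Gys1 1.57-fold (-0.65 ± 0.19, adjusted p = 0.0254). In CD8 cells they differed by -0.30 ± 0.15 and -0.06 ± 0.19 (limma adjusted p = 0.218 and 0.897). Each CD4 call was lost without CD4 control array C or CD4 Foxp3-positive array A or B (0.0509 to 0.0567 for Bnip3 and 0.0668 to 0.114 for Gys1).

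Mif, a cytokine that restrains the action of glucocorticoids, was at 12.04, 12.14 and 12.19 on the CD8 control arrays and at 11.74, 11.72 and 11.61 on the CD8 Foxp3-positive arrays. The CD4 control and Foxp3-positive groups were at 11.71 ± 0.10 and 11.73 ± 0.0013. The CD8 controls alone were high. Mif fell 1.35-fold in CD8 cells (-0.44 ± 0.08, limma adjusted p = 0.00215) and differed by 0.02 ± 0.08 in CD4 cells (adjusted p = 0.891). Its interaction of -0.46 ± 0.12 (limma adjusted p = 0.0223) was lost without CD8 Foxp3-positive array C or CD4 control array B (0.0557 to 0.0573).

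Several hypoxia genes with wide spread passed in neither lineage. Gbe1, the glycogen branching enzyme, differed by -0.66 ± 0.34 in CD8 and -0.74 ± 0.34 in CD4 cells, Ndrg1, a stress-induced growth regulator, by -0.40 ± 0.33 and -0.63 ± 0.33, and Vegfa, the vascular growth factor, by -0.45 ± 0.23 in each. On CD8 control array B these genes were at 8.25, 9.54 and 8.39, below both other arrays of that group, and on CD4 Foxp3-positive array C at 8.83, 11.01 and 9.08, above both others. Without that CD4 array each fell in CD4 cells (-1.07, -0.97 and -0.69, limma adjusted p = 0.0373, 0.0455 and 0.0376). With both arrays left out, each fell in CD8 cells too (-0.99, -0.79 and -0.67, limma adjusted p = 0.0218, 0.0138 and 0.0178), as did P4ha2 (-0.75, adjusted p = 0.00992). Both arrays were chosen after the values were seen. In these genes each lay toward the group it was compared with, so leaving it out had to widen the difference in its own lineage. Without CD8 control array B alone, Gbe1, Ndrg1, Vegfa and P4ha2 did not pass in CD8 cells. Leaving out the CD4 array as well does not change a CD8 difference, but does change its p-value through the shared spread. No conclusion is drawn from these p-values. Arrays that deviated in the direction that widens the falls were kept. Among them were CD4 Foxp3-positive array B, CD8 Foxp3-positive array C and CD4 control array C (medians over the 35 genes -0.17, -0.12 and 0.13).

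The rest of the hypoxia genes lay above 0 or near it. P4ha1, an isoform related to P4ha2, differed by 0.20 ± 0.12 in CD8 and 0.28 ± 0.12 in CD4 cells, with the arrays of both groups apart in each lineage (limma adjusted p = 0.291 and 0.117). The gaps were narrow, the highest control and lowest Foxp3-positive arrays being at 10.181 and 10.183 in CD8 cells and 10.054 and 10.060 in CD4 cells. The sign was opposite to that of P4ha2, but P4ha1 passed in neither lineage and P4ha2 only in CD4 cells. Kdm3a, a histone demethylase, differed by 0.17 ± 0.09 and -0.02 ± 0.09 (limma adjusted p = 0.23 and 0.888). Mxi1, which competes with Myc for Max, differed by 0.27 ± 0.12 and 0.01 ± 0.12 (limma adjusted p = 0.169 and 0.967). A second cluster of Mxi1 rose in CD8 cells (0.41 ± 0.10, limma adjusted p = 0.0126 over all clusters), and the mean of both rose too (0.34, adjusted p = 0.0373).

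**Figure D4:**
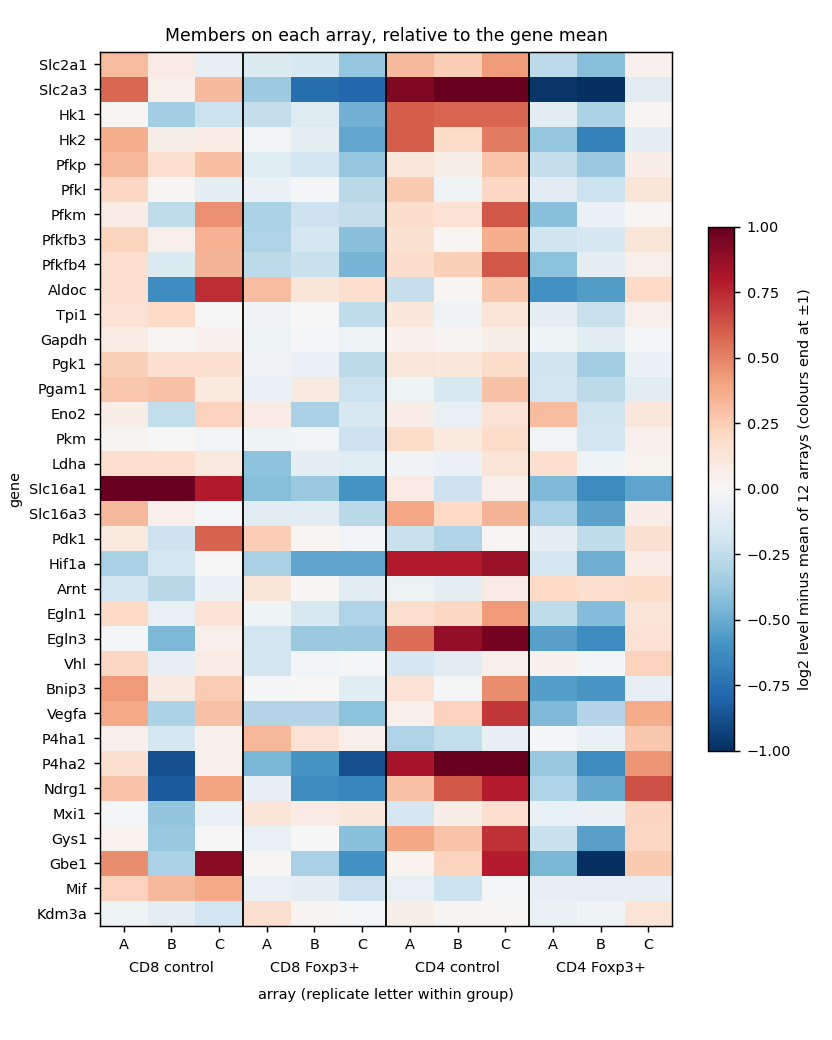
Log2 level minus the gene's mean over the 12 arrays (colour, red higher and blue lower, ending at 1 either way) for the 35 genes (vertical axis) on each array, by group (horizontal axis). Red marks the CD4 controls for Slc2a3, Hk1, Hif1a, Egln3 and P4ha2 and the CD8 controls for Slc16a1, and within groups whole columns shift, as in CD8 control B and CD4 Foxp3-positive C.

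The control groups were compared to ask how CD8 and CD4 cells differed with IL-2 alone. Here 2 of the 35 genes were higher in CD8 cells, Slc16a1 and Mif, and 6 were lower, Slc2a3, Hk1, Hif1a, Egln3, P4ha2 and Gys1, which was 22.9% of the genes beside 20.9% of all genes, a share near that background. In single directions 12.1% of all genes were higher and 8.76% lower. Hif1a was 1.98-fold lower in CD8 than in CD4 controls (-0.98 ± 0.13, limma adjusted p = 0.000163), Hk1 1.7-fold (-0.76 ± 0.12, 0.000578), Egln3 1.92-fold (-0.94 ± 0.19, 0.00373) and P4ha2 2.42-fold (-1.28 ± 0.29, 0.00673). Slc16a1 was 2.07-fold higher in CD8 controls (1.05 ± 0.12, limma adjusted p = 4.37e-05) and Mif 1.33-fold (0.41 ± 0.08, 0.00325). These values share the control arrays with the differences given above and are not independent of them.

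The calls for Slc2a3 (-0.81 ± 0.26, limma adjusted p = 0.0399) and Gys1 (-0.58 ± 0.19, 0.0478) lay near the threshold. With each array left out in turn the differences ran from -0.94 to -0.68 and from -0.67 to -0.45. The call of Slc2a3 was lost without CD8 control array B or C, CD8 Foxp3-positive array B or any CD4 control array (0.0503 to 0.14). That of Gys1 was lost without any CD8 or CD4 control array, CD8 Foxp3-positive array A or B, or CD4 Foxp3-positive array A (0.0553 to 0.178), and with arrays centred on their medians (0.0647). A second, dimmer cluster of Pgam1 was higher in CD8 controls (0.72 ± 0.22, limma adjusted p = 0.0458 over all clusters), where the brightest was not past the threshold (0.19 ± 0.12, 0.354).

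In the Foxp3-positive groups 0 of the 35 genes differed between CD8 and CD4 cells, beside 4.71% of all genes (2.41% higher and 2.3% lower in CD8 cells). The smallest limma adjusted p was 0.21, the count stayed at 0 with a trended and robust prior, and at an unadjusted p under 0.05 it was 2 (16.5% of all genes). These were Ldha, at -0.26 ± 0.10 CD8 minus CD4 (limma adjusted p = 0.21), and Bnip3, at 0.36 ± 0.15 (adjusted p = 0.263). For 23 of the 35 genes the 95% interval lay within 0.5 of 0, and for 32 within 1. The widest intervals reached up to 1.15, for Aldoc, and down to -1.12, for Ndrg1, and both of these intervals include a 2-fold difference. Slc16a1, which differed 2.07-fold between the controls, differed by 0.07 ± 0.12 between the Foxp3-positive groups (interval -0.19 to 0.33), and Hif1a by -0.27 ± 0.13 (-0.56 to 0.02). Without CD8 control array B and CD4 Foxp3-positive array C, the pair chosen after the values were seen, Aldoc passed (0.78, limma adjusted p = 0.0325).

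By group, the highest mean lay in CD4 controls for 16 genes, in CD8 controls for 12, in CD8 Foxp3-positive cells for 4 and in CD4 Foxp3-positive cells for 3. Over all genes these shares were 27.9, 28, 20.3 and 23.8%. The lowest mean lay in a Foxp3-positive group for 30 of the 35 genes, 17 of them CD8 and 13 CD4, which was 85.7% of the genes beside 48% of all genes (23.7 and 24.3% for each group). The CD4 controls stood above every other array for 7 of the 35 genes, beside 6.58% of all genes, and the CD8 controls for 2, beside 7.28%.

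Genes that act next to these pathways were read from 7 further lists, matched by symbol. The counts called in them stand beside the shares of all genes given above, in CD8 cells 9.39% that rose and 10.6% that fell (20% in all), and in CD4 cells 12.1% and 10.4% (22.5% in all). The subunits and partners of oxygen sensing outside the 35 genes (14 of 17 measured) held the largest difference. Epas1, an alternative HIF alpha subunit, was at 11.60 ± 0.03 in CD4 controls and 7.42 ± 0.29 in CD8 controls, against 5.50 ± 0.23 and 5.46 ± 0.08 in the CD4 and CD8 Foxp3-positive groups. It fell 68.7-fold in CD4 cells (-6.10 ± 0.14, limma adjusted p = 2.51e-11) and 3.9-fold in CD8 cells (-1.96 ± 0.14, 6.27e-07), as ratios of array signal whose lower values lie below 5.60, with an interaction of 4.14 ± 0.20 (1.02e-07). In that list 5 genes rose and 3 fell in CD8 cells (57.1% of the list in either direction), and 2 rose and 4 fell in CD4 cells (42.9%), with medians of -0.12 and -0.07. Siah1a, a ubiquitin ligase, rose by 1.58 ± 0.19 and 0.94 ± 0.19 (limma adjusted p = 5.28e-05 and 0.00258). Cited2, which competes with HIF for its coactivators, and Hif3a, an alpha subunit that can restrain HIF, fell in CD4 cells (-1.37 ± 0.10 and -1.14 ± 0.12, limma adjusted p = 5.61e-07 and 1.04e-05), and Ube2d3 passed in neither lineage.

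Of 31 measured of 36 further HIF targets, 4 rose and 8 fell in CD8 cells (12.9 and 25.8%) and 5 rose and 15 fell in CD4 cells (16.1 and 48.4%), with medians of -0.07 and -0.35. Hmox1, which degrades haem, fell in CD8 and CD4 cells (-2.43 ± 0.15 and -1.86 ± 0.15, limma adjusted p = 1.32e-07 and 1.01e-06), from 7.63 and 6.96 in controls to 5.20 and 5.10, levels below 5.60. The lipid droplet gene Plin2 also fell in both (-0.96 ± 0.10 and -1.40 ± 0.10, limma adjusted p = 2.15e-05 and 5.25e-07). The lipolysis inhibitor Hilpda fell by 1.41 ± 0.23 in CD4 cells (limma adjusted p = 0.00053) and was at -0.66 ± 0.23 in CD8 cells (0.0607). The metallothionein Mt2 fell by 1.45 ± 0.37 in CD4 cells (limma adjusted p = 0.0129) and was at -0.62 ± 0.37 in CD8 cells (0.308). Its CD4 Foxp3-positive arrays were far apart, with an SD of 1.07 against 0.18 in CD4 controls. Zfp292 passed in neither. Cited2 belongs to this list as well as to that of oxygen sensing, so its CD4 fall is counted in both.

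Upstream regulators of glycolysis (26 of 28 measured) counted 5 rises and 2 falls in CD8 cells (26.9% of the list in either direction) and 6 rises and 3 falls in CD4 cells (34.6%), with medians of -0.03 and -0.05. Myc, a transcription factor that drives glycolytic genes in activated T cells, rose by 0.85 ± 0.11 in CD4 cells (limma adjusted p = 0.000103) and was at 0.28 ± 0.11 in CD8 cells (0.111). Its partner Max rose by 0.99 ± 0.10 in CD8 and 0.76 ± 0.10 in CD4 cells (limma adjusted p = 1.16e-05 and 7.62e-05). Foxo1, a factor held in check by growth signals, rose by 0.73 ± 0.11 and 0.88 ± 0.11 (limma adjusted p = 0.000419 and 7.23e-05). Arrdc4, an arrestin that lowers glucose uptake, rose by 1.49 ± 0.16 and 0.67 ± 0.16 (limma adjusted p = 2.81e-05 and 0.00946), and the kinase Akt1 passed in neither.

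The other enzymes of glycolysis (15 of 20 measured) counted 2 rises and 1 fall in each lineage (20% of the list), with medians of -0.03 and -0.05. Eno3, the muscle enolase, fell in CD8 cells (-0.33 ± 0.11, limma adjusted p = 0.0439) and rose in CD4 cells (1.06 ± 0.11, 8.97e-06), with an interaction of -1.40 ± 0.15 (7.35e-05). Adpgk, which uses ADP to phosphorylate glucose, rose by 1.41 ± 0.14 in CD4 cells (limma adjusted p = 8.06e-06) and was at 0.10 ± 0.14 in CD8 cells (0.723). The transporter Slc2a6 rose by 1.24 ± 0.12 in CD8 cells (limma adjusted p = 7e-06) and was at -0.32 ± 0.12 in CD4 cells (0.0658). Slc2a8, another sugar transporter, fell by 0.34 ± 0.11 in CD4 cells (limma adjusted p = 0.0446) and was at -0.23 ± 0.11 in CD8 cells (0.197), and Minpp1 passed in neither.

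In the pentose phosphate pathway, which branches off glycolysis (10 of 12 measured), 0 genes rose and 1 fell in CD8 cells (10% of the list) and 2 rose and 2 fell in CD4 cells (40%). Rpia, the ribose phosphate isomerase, fell in both lineages (-0.72 ± 0.10 and -0.52 ± 0.10, limma adjusted p = 0.000242 and 0.00258), and Prps1 and Prps2, which activate ribose for nucleotides, each rose by 0.67 in CD4 cells (0.0066 and 0.000301). Pgd, an oxidative enzyme of the pathway, fell by 0.36 ± 0.11 in CD4 cells (limma adjusted p = 0.0418), and Taldo1 passed in neither. The medians were -0.18 and -0.10.

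Genes for the entry of pyruvate into mitochondria (13 of 14 measured) counted 1 rise and 5 falls in CD8 cells (7.69 and 38.5% of the list) and 4 rises and 1 fall in CD4 cells (30.8 and 7.69%), with medians of -0.30 and 0.15. Dlat, a pyruvate dehydrogenase subunit, fell by 0.75 ± 0.09 in CD8 cells (limma adjusted p = 5.57e-05) and was at 0.15 ± 0.09 in CD4 cells (0.291), with an interaction of -0.89 ± 0.13 (0.000544). Pdk2, a kinase that inhibits that complex, rose by 0.58 ± 0.16 and 0.83 ± 0.16 (limma adjusted p = 0.0193 and 0.00169). Pdk4, another such kinase, fell by 0.66 ± 0.11 in CD4 cells from a level below 5.60 (limma adjusted p = 0.000854), Pdpr, a regulatory subunit of the opposing phosphatase, rose by 0.50 ± 0.09 (0.00153), and Pdk3 passed in neither.

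Glycogen genes outside the 35 (17 of 20 measured) counted 2 rises and 2 falls in CD8 cells (23.5% of the list) and 3 rises and 2 falls in CD4 cells (29.4%), with medians of -0.09 and -0.19. Pygm, the muscle glycogen phosphorylase, fell 2.9-fold in CD8 cells (-1.54 ± 0.13, limma adjusted p = 3.34e-06) and was at 0.10 ± 0.13 in CD4 cells (0.647), while the liver form Pygl rose in both (1.47 ± 0.37 and 1.20 ± 0.37, 0.0123 and 0.0341). Gyg, which primes glycogen, and Ppp1r3b, which targets a phosphatase to it, fell in CD4 cells (-1.05 ± 0.10 and -1.19 ± 0.17, limma adjusted p = 6.95e-06 and 0.000239) and were at -0.30 ± 0.10 and -0.10 ± 0.17 in CD8 cells (0.0567 and 0.79). Pgm2 passed in neither. For Pygl the CD8 control arrays were far apart, with an SD of 0.99 against 0.08 in CD8 Foxp3-positive cells. The members of these 7 lists were not tested with single arrays left out.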

How the data were processed

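Per the labels, 250 ng of total RNA per sample was labelled for the arrays. The authors deposited log2 levels per transcript cluster, and the submitters' processing notes name RMA and Affymetrix Expression Console. Their versions and the genome build were not given in the sources used here. RMA scales the arrays to one another, so a change in total RNA per cell would not show. The labels name no slide or scan date, so no batch could be tested.

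Of 34365 clusters, 23521 had 1 gene symbol in the platform annotation, 1814 had several and 9030 had none listed. The brightest single-symbol cluster per gene gave 22180 genes, with no filter on low levels. All 12 arrays entered 1 linear model with 4 group means (limma 3.58.1 under R 4.3.3, lmFit then eBayes with no trend and not robust, 8 residual degrees of freedom), with 5 two-sided contrasts. The model was tested on simulated data. Over the 5 contrasts it recovered from 16.4% (the interaction) to 43.3% (the CD8 comparison) of the genes set to differ by 0.5. For genes set to differ by 1 and by 2 it recovered 80.6 to 89.6% and 98.5 to 100%. The false share ran from 3.31%, between the Foxp3-positive groups, to 8.38%, between the controls. Each contrast had a single run, with 66 or 67 of 22180 genes set to differ by each size. These were far fewer than the genes called in the data. Noise was drawn independently for each gene, whereas the 35 genes shifted together on single arrays. The recovered and false shares therefore need not hold for these data. Arrays with the same replicate letter did not deviate together over all genes (residual correlation from -0.10 to 0.14, over 0.1 in 2 of 18 pairs), so the letters were not taken to pair samples, although the 35 genes moved by letter in the CD4 groups.

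All 35 genes found are named, and values on all arrays are given for the 14 with the largest difference past the threshold, and for Mif and Ldha in CD8 cells, added after their values were seen. From each of the 7 further lists, up to 4 genes with the largest difference past the threshold and the brightest that passed in neither lineage are named. The genes, lists and tests were chosen with earlier results of these data known. Alternatives were another prior, a filter on low levels, the mean of a gene's clusters, adjustment over all clusters, centred arrays, fits of the compared groups only, a replicate block and leaving out arrays. Their effect is given in the closing section.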

Additional observations from a re-analysis of the deposited data

Results flagged for a closer look

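For 5 of the 35 glycolysis and hypoxia genes the difference between Foxp3-positive and control cells itself differed between the lineages, by the interaction term of the limma model (CD8 difference minus CD4 difference, adjusted p under 0.05). This was 14.3% of the 35, beside 13.5% of all genes, a share near that background. Hk1 (0.62), Hif1a (0.72) and Egln3 (0.97) were positive, each with a fall in CD4 cells and a CD8 difference that did not pass. The second cluster of Hif1a did not pass (0.47, adjusted p = 0.22). Slc16a1 (-0.98) fell in both lineages, and Mif (-0.46) fell in CD8 cells. In all 5 genes the controls of the 2 lineages also differed, while the Foxp3-positive groups did not pass the threshold. These comparisons share arrays. The interaction of Slc16a1 kept its call with any single array left out, and each of the other 4 lost it without at least 1 array, as given above. Groups of 3 arrays were not screened for single outlying values.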

How the results depend on the processing

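Of 34 calls for the 35 genes over the 5 comparisons, 18 were kept under every alternative run for them and with any single array left out (fits of only the compared groups were not run for the interaction), and 16 were lost without at least 1 array. No called difference changed sign. With each array left out in turn, the genes that fell numbered 4 to 7 in CD8 and 8 to 18 in CD4 cells, the interaction had 0 to 4 higher and 1 to 2 lower, and the controls 2 higher and 4 to 6 lower. Over all genes the same runs gave 1713 to 2064 higher and 1714 to 2497 lower in CD8 cells, 2059 to 2850 and 1775 to 2409 in CD4 cells, 1063 to 1325 and 1149 to 1833 for the interaction, 341 to 583 and 333 to 562 for Foxp3-positive cells, and 1965 to 2702 and 1599 to 1912 for controls. The mean of a gene's clusters gave 1 gene that rose in CD8 cells (Mxi1). With CD8 control B and CD4 Foxp3-positive C left out together, chosen after seeing the data, the interaction had 4 genes higher, gaining Slc2a3 (adjusted p = 0.0103) and P4ha2 (0.0487) and losing Hk1 (0.0511), and 1 lower (Slc16a1), losing Mif (0.0733), and the Foxp3-positive groups 1 gene higher in CD8 cells (Aldoc). Fits of only the compared groups gave 5 falls in CD8 and 10 in CD4 cells, losing Pgk1 in each lineage (adjusted p = 0.071 and 0.0522), Ldha in CD8 cells (0.061) and Pfkfb4, Egln1 and Gys1 in CD4 cells (0.0617, 0.0764 and 0.0525). The cause was not tested, but these fits use fewer arrays. With a trended and robust prior Pfkp and Pkm also fell in CD4 cells (0.0269 and 0.0214) and the control call of Slc2a3 was lost (0.064). With low genes left out 5 values passed in addition, Pfkfb4 in CD8 cells, Pfkp, Pfkm and Pkm in CD4 cells, and the interaction of Ldha. Adjusted over all clusters, Pgk1 in CD8 cells (0.0573), the interaction of Egln3, and Slc2a3 and Gys1 between controls (0.055 and 0.066) were lost. The replicate block gave 6 falls in CD8 and 15 in CD4 cells, losing Pgk1 in CD8 cells (0.0567) and adding Pfkm in CD4 cells (0.0411), and changed no other call of the 35 genes. The arrays give no counts, and their number limits the precision.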
